A study of Mus musculus with 6 samples.

Results

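Red cell genes were examined in cultured mouse bone marrow cells labelled as double knockouts of Cry1 and Cry2, the cryptochromes that act as repressors in the circadian clock. The 9 genes were Alas2, Epor, Klf1, Gata1, Tfrc, Slc4a1, Ahsp, Rhag and Ermap, and a probe set was taken where one of them was its single listed gene symbol. That gave 12 probe sets of the 45037 on the array, for 8 of the 9 genes, among 18193 genes named in this way. Ahsp, which encodes a chaperone of alpha-globin, had no such probe set and is not analysed here. Slc4a1 and Tfrc had 3 probe sets each and the other genes 1 each.

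The DKO group was 3 arrays of bone marrow cells that the labels give as double knockouts of the Cry genes, and the WT group was 3 arrays of cells from wild-type mice. All were of the strain C57BL/6, and all cells had been grown in culture with interleukin-7 at 10 ng/ml and serum at 20%. No other growth factor is named in the labels, interleukin-7 being the cytokine that drives the growth of early B cells. How the alleles were made, the age of the mice and the time in culture were not given in the sources used here. Nor do the labels say if the 3 arrays of a genotype were different mice or cultures, and the p-values may therefore rest on technical spread alone. The cells are a culture and not fresh marrow, and the labels name no sort or gate.

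Red cells arise in the marrow from progenitors that respond to erythropoietin through its receptor Epor. The transcription factors Gata1 and Klf1 switch on the red cell program, including the enzyme Alas2 for heme, the membrane proteins Slc4a1 (band 3), Rhag and Ermap, and the globins. Iron for heme enters through the transferrin receptor Tfrc, which other dividing cells also carry on their surface, so that among these genes it is the least restricted to red cells.

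Promoter sequences are shown for 4 genes, because Gata1 and Klf1 are themselves among the genes measured and bind short DNA motifs in many red cell promoters. Each window runs from 250 bases before the start site to 50 after it, is taken from RefSeq on GRCm38.p6 and is written 5′ to 3′ along the gene. Capitals mark matches on either strand to a GATA motif (spelled AGATAA, with T also allowed as its first letter and G as its last) or to the CACC box bound by KLF1 (CCNCNCCCN), and runs of capitals hold overlapping matches. The windows are chrX:150547167-150547466 on the plus strand for Alas2, chr9:21963527-21963826 on the minus strand for Epor, chr8:84901732-84902031 on the plus strand for Klf1 and chr16:32608646-32608945 on the plus strand for Tfrc.
Alas2: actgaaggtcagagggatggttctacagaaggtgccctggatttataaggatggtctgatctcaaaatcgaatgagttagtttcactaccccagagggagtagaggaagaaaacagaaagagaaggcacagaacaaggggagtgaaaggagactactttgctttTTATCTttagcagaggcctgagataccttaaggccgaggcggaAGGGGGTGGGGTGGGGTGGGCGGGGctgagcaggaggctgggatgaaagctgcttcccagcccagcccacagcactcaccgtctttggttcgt
Epor: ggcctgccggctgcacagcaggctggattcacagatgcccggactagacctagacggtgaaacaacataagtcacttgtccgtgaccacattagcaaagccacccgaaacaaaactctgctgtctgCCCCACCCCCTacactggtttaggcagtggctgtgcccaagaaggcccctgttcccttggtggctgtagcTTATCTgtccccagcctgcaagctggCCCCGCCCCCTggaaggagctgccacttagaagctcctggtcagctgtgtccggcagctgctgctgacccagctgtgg
Klf1: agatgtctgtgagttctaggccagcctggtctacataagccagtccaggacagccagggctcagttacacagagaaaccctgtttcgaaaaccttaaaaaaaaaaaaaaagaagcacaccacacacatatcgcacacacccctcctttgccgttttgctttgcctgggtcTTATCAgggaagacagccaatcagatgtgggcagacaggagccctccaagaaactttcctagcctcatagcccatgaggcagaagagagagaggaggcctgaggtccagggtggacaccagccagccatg
Tfrc: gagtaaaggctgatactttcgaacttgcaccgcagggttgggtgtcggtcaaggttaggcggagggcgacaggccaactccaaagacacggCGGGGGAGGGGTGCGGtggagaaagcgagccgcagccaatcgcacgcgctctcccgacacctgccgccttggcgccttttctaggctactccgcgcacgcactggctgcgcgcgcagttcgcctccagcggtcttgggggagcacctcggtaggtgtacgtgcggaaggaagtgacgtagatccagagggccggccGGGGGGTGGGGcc

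Entries were found for 7 of the 8 measured genes, with 8 windows because Tfrc had 2 start sites. A GATA motif stood in 5 of the 8 windows, those of Alas2 (86 bases before the start), Klf1 (80 before), Ermap (67 before), Epor (54 before) and Rhag (31 before), and in 29.8% of all 32851 RefSeq promoter windows of that length. The CACC box stood in 5 of the 8 windows, those of Alas2, Epor, Gata1 and both of Tfrc, and in 49.4% of all windows. The E-box CACGTG, the motif bound by the clock factors that cryptochromes repress, was in 0 of the 8 windows and in 7.15% of all. A match is a description of letters and shows no binding.

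Array quality set 1 array apart. WT 2 had a ratio of 3′ to 5′ signal of 824 for Actb and 132 for Gapdh, against 1.47 to 2.05 and 0.838 to 1.72 on the other 5 arrays. Its median signal was 115, against 44.0 to 55.3 on the others, and its log2 signals correlated with theirs at 0.832 to 0.848, while the other 5 correlated among themselves at 0.956 to 0.982. Differences are therefore given with WT 2 and without it. Cry1 gave signals of 359, 399 and 545 in DKO cells, against 1533, 1502 and 955 in WT cells (log2 difference -1.26, SE 0.46, limma adjusted p = 0.822, and -1.48 without WT 2). Cry2 gave 162, 178 and 133 in DKO cells, against 145, 102 and 105 in WT cells, a positive log2 difference of 0.70 (SE 0.41, adjusted p = 0.822, and 0.29 without WT 2). Where these probe sets lie relative to the deletions was not analysed here, so they check the labels only in part, and DKO stands below for the arrays so labelled.

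On every array Alas2, Rhag and all 3 probe sets of Slc4a1 were below the array median, while the first probe set of Tfrc was among the brightest. Epor was above the median on all 6 arrays, between percentiles 51.7 and 62.5 of all probe sets, and Klf1, Gata1 and Ermap ran from percentile 33.3 to 65.7. The 9 probe sets of the 7 genes other than Tfrc ranged from 1.35 to 126 MAS5 units in the DKO cells, from 1.78 to 90.8 in WT 1 and WT 3, and from 17.9 to 205 in WT 2, where MAS5 units are the deposited signals with the trimmed mean of each array set at 500. For scale alone, 18 genes known from other organs, such as albumin and insulin, ranged from 0.557 to 333 in the DKO cells, from 0.542 to 189 in WT 1 and WT 3, and from 5.07 to 325 in WT 2. The 333 was Umod, a kidney gene, on DKO 2, and the medians of these 18 genes were 33.3 in the DKO cells, 27.7 in WT 1 and WT 3, and 40.6 in WT 2. Probe sets differ in how brightly they read, so these signals set no detection limit for the erythroid genes. In bulk RNA, fewer cells of a type and less RNA per cell cannot be told apart.

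**Figure D1:**
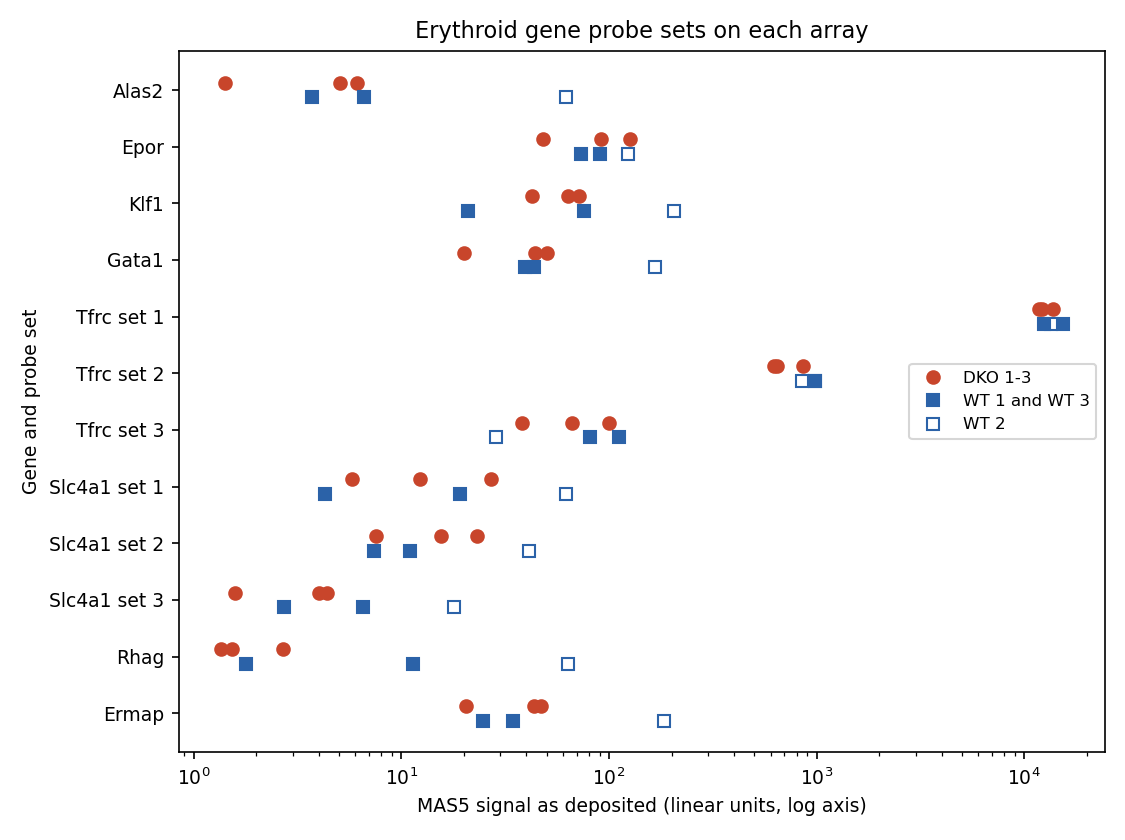
Deposited MAS5 signal (log axis) of each of the 12 erythroid probe sets on each array, with DKO arrays as red circles above the WT arrays as blue squares, and WT 2 as an open square. The first Tfrc probe set lies between 11816 and 15312 units on every array, and WT 2 is the highest array for 8 of the 12 probe sets.

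Between the genotypes, 0 of the 7 erythroid probe sets that passed the filter on low signal were called by limma at an adjusted p under 0.05, and 0 had an unadjusted p under 0.05, with or without WT 2. Over all 27022 probe sets tested, 0.0074% were called with 6 arrays and 0.0222% without WT 2, while 3.12% with 6 arrays and 4.39% without WT 2 had an unadjusted p under 0.05. DKO and WT signals, centred on each array's median, overlapped for all 12 erythroid probe sets with and without WT 2. Over all 45037 probe sets, 9.66% had groups that did not overlap with 6 arrays and 18.2% without WT 2. The tested probe sets were those of Epor, Klf1, Gata1, Ermap and Tfrc, and those of Alas2, Slc4a1 and Rhag were below the filter.

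**Figure D2:**
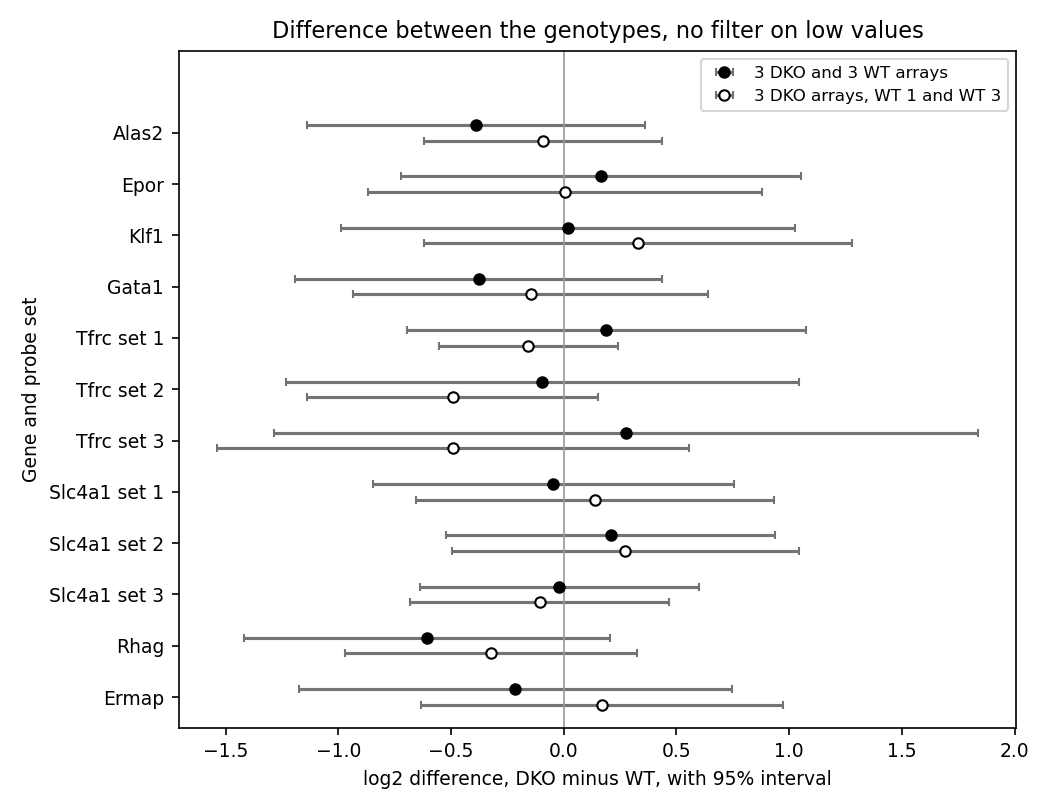
Difference between DKO and WT means for each erythroid probe set on the scale of log2(signal + 16) centred per array, with the 95% interval from a limma fit with no filter on low signal. Filled points use all 6 arrays and open points leave out WT 2; every interval spans 0, and those of Klf1 reach 1.03 with 6 arrays and 1.28 without WT 2.

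Neither red cell transcription factor differed beyond the spread between arrays. Gata1, the master regulator of the red cell and megakaryocyte lineages (chromosome X), gave signals of 50.5, 43.8 and 20.0 on the DKO arrays, against 43.3, 167 and 39.3 on the WT arrays. WT 2 was the highest array, DKO 3 the lowest, and the groups overlapped. The difference of means, DKO minus WT on the scale of log2(signal + 16) centred per array, was -0.38 (SE 0.33, 95% interval -1.15 to 0.40, limma adjusted p = 0.822). Without WT 2 it was -0.15 (SE 0.30, interval -0.87 to 0.57, adjusted p = 0.962). Its centred log2 value averaged -0.35 ± 0.34 in DKO cells and 0.02 ± 0.40 in WT cells (SD, n = 3 each), close to the median of the array in both.

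Klf1, which activates adult beta-globin and genes of the red cell membrane (chromosome 8), gave 63.3, 71.7 and 42.4 in the DKO cells, against 75.6, 205 and 21.0 in the WT cells. The 3 WT arrays held both the highest and the lowest signals, so the DKO arrays lay inside the WT range. The log2 difference was 0.02 (SE 0.42, interval -0.97 to 1.01, limma adjusted p = 0.989), and without WT 2 it was 0.33 (SE 0.39, interval -0.59 to 1.24, adjusted p = 0.949). The sign turned with the scaling, to -0.29 with no centring, -0.15 with quantile normalization and -0.27 with centring on the tested probe sets. The spread over the WT arrays, 0.78 on the log2 scale, was wider than that over the DKO arrays, 0.18 (SD, n = 3 each).

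Epor, the receptor through which erythropoietin keeps progenitors alive (chromosome 9), gave 126, 91.5 and 48.2 in DKO cells, against 73.2, 123 and 90.8 in WT cells. In signal, DKO 1 was the highest array, DKO 3 the lowest, and the WT arrays lay between them. After centring, WT 2 was the lowest (0.088, against 0.096 on DKO 3). The log2 difference was 0.16 (SE 0.35, interval -0.65 to 0.98, limma adjusted p = 0.887) and 0.01 without WT 2 (SE 0.35, interval -0.82 to 0.83, adjusted p = 0.998). It was -0.15 with no centring and -0.13 with centring on the tested probe sets, so no direction is given for it. Epor was the one gene of the 7 whose signal was above the array median on all 6 arrays.

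Alas2, the red cell form of the first enzyme of heme synthesis (chromosome X), gave 6.08, 5.06 and 1.42 in DKO cells, against 3.73, 61.9 and 6.61 in WT cells. All arrays other than WT 2 were at 6.61 or below, and WT 2 stood alone at 61.9. On the other 5 arrays these signals fell between percentiles 3.2 and 16.8 of all probe sets, and on WT 2 at percentile 33.2. The gene did not pass the filter and was not tested. Its log2 difference was -0.39 with all arrays (95% interval -1.14 to 0.36 in the fit with no filter) and -0.09 without WT 2 (interval -0.62 to 0.44). The pseudocount of 16 is larger than most of its signals, so these log2 differences say little of its fold change.

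Slc4a1, the anion exchanger band 3 that anchors the membrane to the skeleton (chromosome 11), was measured by 3 probe sets, none above the filter. The first gave 12.3, 27.0 and 5.77 in DKO cells, against 19.2, 61.8 and 4.30 in WT cells. The second gave 15.5, 7.51 and 23.1 in DKO cells, against 10.9, 41.0 and 7.39 in WT cells. The third gave 4.40, 1.58 and 4.0 in DKO cells, against 2.70, 17.9 and 6.49 in WT cells. WT 2 gave the highest signal for all 3, but after centring on each array's median it was the highest for none of them. The centred values were highest on DKO 2, DKO 3 and WT 3 in turn. The groups overlapped, and the other 5 arrays followed no shared order: DKO 2 was the highest of them for the first probe set and DKO 3 for the second. The log2 differences were -0.05, 0.21 and -0.02 with 6 arrays and 0.14, 0.27 and -0.11 without WT 2.

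Rhag, the glycoprotein that carries the Rh complex to the red cell surface (chromosome 17), gave 1.35, 2.70 and 1.53 in DKO cells, against 1.78, 63.3 and 11.3 in WT cells. WT 2 was again far above the rest, WT 3 came next, and WT 1 lay among the DKO arrays. It was not tested, and its log2 difference was -0.61 (95% interval -1.42 to 0.20 with no filter) and -0.32 without WT 2 (interval -0.97 to 0.33). Ermap, a membrane protein of the immunoglobulin superfamily found on red cells (chromosome 4), gave 43.3, 47.0 and 20.6 in DKO cells, against 24.6, 183 and 34.5 in WT cells. DKO 3 had the lowest signal and WT 2 the highest, while after centring WT 1 was the lowest array. Its log2 difference was -0.21 with 6 arrays (SE 0.41, interval -1.17 to 0.75, limma adjusted p = 0.874), and 0.17 without WT 2 (SE 0.32, interval -0.59 to 0.92, adjusted p = 0.962), so its sign rests on that array.

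Tfrc, the receptor that takes up transferrin-bound iron (chromosome 16), was the bright member. Its first probe set gave 11816, 13711 and 12238 in DKO cells, against 15312, 13404 and 12497 in WT cells, between percentiles 98.1 and 99.2 of all probe sets on every array. In signal, WT 1 was the highest array, DKO 1 the lowest, and the others lay close together, while after centring WT 2 was the lowest. The centred log2 value averaged 7.56 ± 0.16 in DKO cells and 7.37 ± 0.60 in WT cells (SD, n = 3 each). The difference was 0.19 (SE 0.35, interval -0.63 to 1.01, limma adjusted p = 0.871), and without WT 2 it was -0.16 (SE 0.15, interval -0.52 to 0.20, adjusted p = 0.949). It was also below 0 with no centring (-0.12), so no direction held across the scalings.

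The second Tfrc probe set gave 646, 622 and 857 in DKO cells, against 982, 850.1 and 980.0 in WT cells. In signal, DKO 1 and DKO 2 lay below all WT arrays, and DKO 3 lay just above WT 2, while after centring WT 2 was the lowest array. Its log2 difference was -0.09 (SE 0.50, interval -1.27 to 1.08, limma adjusted p = 0.955) and -0.49 without WT 2 (SE 0.29, interval -1.17 to 0.18, adjusted p = 0.949). The third gave 37.9, 66.3 and 99.7 in DKO cells, against 80.9, 28.6 and 112 in WT cells, with WT 2 lowest and WT 3 highest. Its difference was 0.28 (SE 0.70, interval -1.36 to 1.92, adjusted p = 0.905) and -0.49 without WT 2 (SE 0.44, interval -1.53 to 0.55, adjusted p = 0.949). All 3 probe sets were below 0 without WT 2, with intervals that span 0.

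The array also carries 3 control probe sets along the Tfrc transcript, which were not counted among the 12. The 3′ control gave 429.7, 436 and 634 in DKO cells, against 549, 375 and 623 in WT cells. The middle control gave 45.5, 59.2 and 76.6 in DKO cells, against 72.3, 30.4 and 89.1 in WT cells. Both were lowest on WT 2 among the WT arrays, as the third member probe set was. The 5′ control gave 3.21, 51.4 and 49.9 in DKO cells, against 78.8, 57.3 and 42.9 in WT cells, with DKO 1 far below the rest. After centring, all 3 Tfrc member probe sets were lowest on WT 2, the array with the high 3′ to 5′ ratios, and the part of those ratios in the Tfrc values was not tested.

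**Figure D3:**
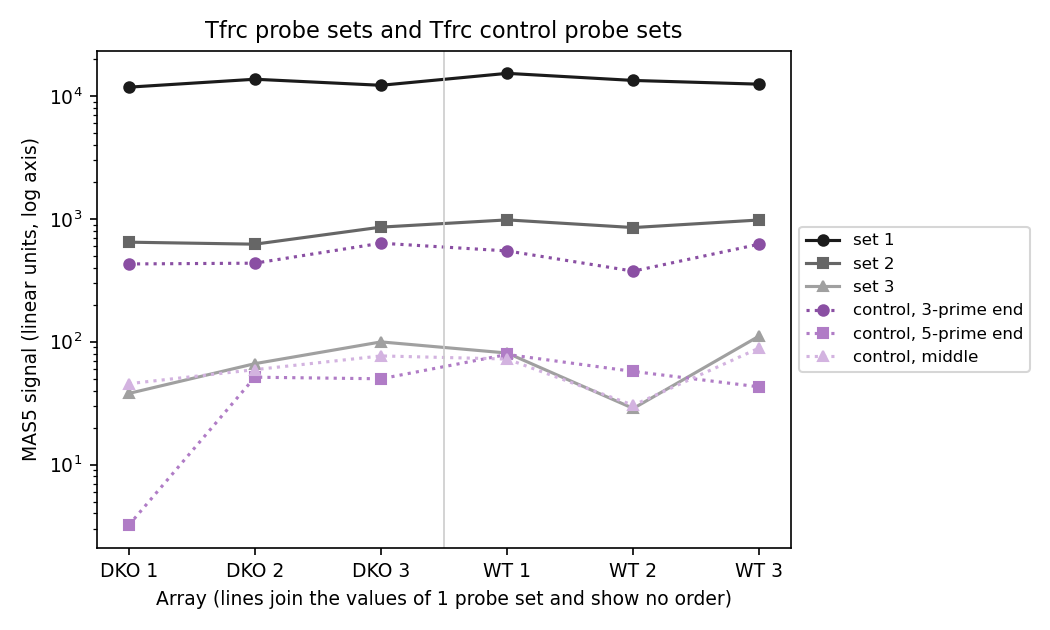
MAS5 signal (log axis) of the 3 Tfrc probe sets, in black and grey, and of the 3 Tfrc control probe sets, dotted in purple, on the 3 DKO arrays at the left and the 3 WT arrays at the right. The first probe set stays between 11816 and 15312 units on every array, while the 5′ control reads 3.21 on DKO 1 and 42.9 to 78.8 on the other arrays.

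Across the 12 probe sets, DKO means were higher for 5 and lower for 7, both with 6 arrays and without WT 2. The median log2 difference of the 8 measured genes, each by its probe set with the highest mean, was -0.13 with 6 arrays and -0.04 without WT 2. Of the 5 tested genes it was 0.02 with 6 arrays, against 0.30 for all 12627 genes tested, and 0.01 without WT 2, against 0.01 for all genes. The scaling moved both medians, to -0.29 for the 5 genes and -0.01 for all genes with no centring and to -0.15 and 0.01 with quantile normalization. WT 2 gave the highest signal for 8 of the 12 probe sets, and for 55.1% of all probe sets. DKO 3 gave the lowest for 4 of the 12, and for 22.5% of all. After centring, WT 2 was highest for 5 of the 12, and for 24.5% of all. It was then lowest for 4 of the 12, and for 48.5% of all, and DKO 3 was lowest for 1, and for 8.39% of all. Signals were below the array median on all 6 arrays for 5 of the 12, those of Alas2, Slc4a1 and Rhag, and for 36.3% of all probe sets.

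The globins, the main product of maturing red cells, had named probe sets for 6 of the 9 genes listed. The beta-globin genes Hbb-b1, Hbb-bs and Hbb-bt had none, so globin sums given below leave them out. Hba-a2 gave 88.4, 172 and 127 in DKO cells, against 112, 130.0 and 135 in WT cells (log2 difference 0.31, SE 0.41, limma adjusted p = 0.83). DKO 2 had the highest signal, DKO 1 the lowest, and without WT 2 the difference was 0.00. Hba-a1 ranged from 4.46 to 21.2 in DKO cells and from 6.04 to 24.6 in WT cells. The embryonic Hbb-bh1 gave 54.1, 19.0 and 43.6 in DKO cells, against 20.4, 10.9 and 19.6 in WT cells. Its log2 difference was 1.00 with 6 arrays, where it was below the filter, and 0.53 without WT 2, where it was tested (SE 0.38, limma adjusted p = 0.949), and the groups overlapped. Other Hbb-bh1 probe sets, also below the filter with 6 arrays, differed by -0.06 and 0.30, and by 0.28 and 0.02 without WT 2. Hba-a1 and Hba-a2 are near-identical copies, whose signals cannot be cleanly parted.

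In heme synthesis, 11 of 12 listed genes were tested and 0 were called in either direction, with 0.0074% called over all probe sets. The means were higher in DKO cells for 8 and lower for 3, with a median of 0.41, against 0.30 for all genes tested, and without WT 2 a median of 0.09, against 0.01. Ppox, which makes protoporphyrin, gave 1118, 846 and 857 in DKO cells, against 538, 227 and 629 in WT cells (log2 difference 1.41, SE 0.68, limma adjusted p = 0.822, and 0.65 without WT 2). The groups did not overlap with or without WT 2, as for 9.66% and 18.2% of all probe sets, while another Ppox probe set that was tested differed by 0.04, and by 0.03 without WT 2. Alas1, the form of the first enzyme found in all tissues, gave 847, 873 and 1026 in DKO cells, against 854, 434 and 733 in WT cells, with overlap (log2 difference 0.79, and 0.18 without WT 2). Another tested Alas1 probe set differed by 0.04, and by 0.47 without WT 2. Urod, the decarboxylase later in the pathway, differed by -0.17 on its brightest probe set and by 1.02 on its other one, but by 0.09 and 0.05 without WT 2.

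Of the other red cell transcription factors, all 16 listed were tested, 0 were called, and 13 had higher means in DKO cells and 3 lower, or 9 and 7 without WT 2 (median 0.35, and 0.07 without WT 2). For all genes tested the medians were 0.30, and 0.01 without WT 2. Lyl1, a relative of Tal1 in blood progenitors, gave 5634, 4634 and 3818 in DKO cells, against 2705, 2872 and 3132 in WT cells (log2 difference 0.99, SE 0.42, limma adjusted p = 0.822, and 0.65 without WT 2). Its lowest DKO signal was above its highest WT signal. Gata2, which Gata1 replaces as red cells and megakaryocytes mature and which mast cells keep, gave 458, 281 and 123 in DKO cells, against 127, 317 and 76.9 in WT cells (log2 difference 1.03, SE 0.46, adjusted p = 0.822, and 1.21 without WT 2). DKO 1 and WT 2 gave its highest signals, and the groups overlapped with WT 2 but not without it, as for 18.2% of all probe sets. Summed signals of 8 mast cell and basophil markers were 1150.0, 1008 and 153 in DKO cells, against 394, 586 and 166 in WT cells. These sums were highest on DKO 1 and DKO 2 rather than on DKO 1 and WT 2, and their part in the Gata2 values was not tested. Myb, which keeps progenitors from maturing, gave 16936 to 21870.0 in DKO cells and 13016 to 18611 in WT cells, a log2 difference of 0.60, and 0.11 without WT 2. Other Myb probe sets differed by 1.99 and 1.21, and by 0.42 and 0.28 without WT 2.

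Among iron genes, 10 of 12 listed were tested and 0 called, with 5 means higher and 5 lower in DKO cells, or 1 and 9 without WT 2 (median -0.02, and -0.21 without WT 2). For all genes tested the medians were 0.30, and 0.01 without WT 2. Slc40a1, the iron exporter ferroportin of macrophages, gave 66.2, 55.3 and 479.9 in DKO cells, against 722, 808 and 448 in WT cells (log2 difference -1.89, SE 0.81, limma adjusted p = 0.822, and -2.05 without WT 2). DKO 1 and DKO 2 were far below the other 4 arrays, and DKO 3 lay within the WT range. Another tested Slc40a1 probe set differed less, by -0.25, and by -0.66 without WT 2. Summed signals of 15 macrophage markers were 3292, 3221 and 9065 in DKO cells, against 18789.6, 47258 and 5889 in WT cells, with DKO 1 and DKO 2 again the lowest arrays, and their part in the Slc40a1 values was not tested. Fth1, the ferritin heavy chain that stores iron, gave 22470.2 to 24744 in DKO cells and 20990.4 to 58946 in WT cells, a difference of -0.12 on its brightest probe set and 0.73 on its other one. Without WT 2 these were -0.00 and -0.09.

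In erythropoietin signalling, 9 of 11 listed genes were tested and 0 called, with 9 means higher in DKO cells, or 7 higher and 2 lower without WT 2 (median 0.42, and 0.26 without WT 2). For all genes tested the medians were 0.30, and 0.01 without WT 2, and the share of all genes with higher means was not counted. Stat5a, a transcription factor downstream of the erythropoietin and interleukin-7 receptors, gave 600.4, 708 and 806 in DKO cells, against 454, 113 and 648 in WT cells (log2 difference 1.37, SE 0.87, limma adjusted p = 0.822, and 0.34 without WT 2). WT 2 was the lowest array, and DKO 1 lay below WT 3. Another tested Stat5a probe set differed by 0.45, and by 0.03 without WT 2. Pim1, a kinase induced by STAT5, gave 4767, 4191 and 5276 in DKO cells, against 6376, 2764 and 7017 in WT cells, so all DKO arrays were below WT 1 and WT 3 and above WT 2. Its difference was 0.24 with 6 arrays and -0.52 without WT 2. Without WT 2 its groups did not overlap, as for 18.2% of all probe sets. Another tested Pim1 probe set differed by 0.61, and by -0.83 without WT 2.

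The membrane and skeleton list had 12 of 18 genes tested and 0 called, with 9 means higher and 3 lower in DKO cells in both sets of arrays (median 0.13, and 0.12 without WT 2). For all genes tested the medians were 0.30, and 0.01 without WT 2. Rhd, the Rh protein that pairs with Rhag, gave 101, 109 and 132 in DKO cells, against 69.4, 155 and 95.8 in WT cells (log2 difference 0.45, SE 0.31, limma adjusted p = 0.822, and 0.39 without WT 2). Cd47, which marks red cells and many other cells as self, gave 7164 to 7912 in DKO cells and 5242 to 9034 in WT cells, a log2 difference of 0.35, and -0.22 without WT 2, where the DKO arrays lay below WT 1 and WT 3. Without WT 2, groups did not overlap for 18.2% of all probe sets. Other Cd47 probe sets ran from -0.65 to 0.82, and from -0.40 to 0.08 without WT 2. For late maturation, 11 of 16 genes were tested and 0 called, with 5 means higher and 6 lower in DKO cells, or 7 and 4 without WT 2 (median -0.19, and 0.02 without WT 2). These medians stood beside the same 0.30 and 0.01 for all genes. Slc43a1, an amino acid transporter, gave 880.3, 1019.5 and 405 in DKO cells, against 327, 763 and 382 in WT cells. Its log2 difference was 0.94 (SE 0.44, limma adjusted p = 0.822, and 0.97 without WT 2). The centred groups did not overlap in either case, as for 9.66% of all probe sets with 6 arrays and 18.2% without WT 2. Prdx2, a peroxidase abundant in red cells, differed by 0.53 on its brightest probe set and by -1.03 on its other one, and by 0.17 and -1.58 without WT 2. Over the 7 lists, 0 genes had an unadjusted p under 0.05 with 6 arrays, against 3.12% of all probe sets tested. Without WT 2, 1 of 11 heme genes, 2 of 16 transcription factors and 2 of 11 late genes did, against 4.39%. In the other lists it was 0 of 2 globins, 0 of 12 membrane genes, 0 of 10 iron genes and 0 of 9 erythropoietin signalling genes.

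**Figure D4:**
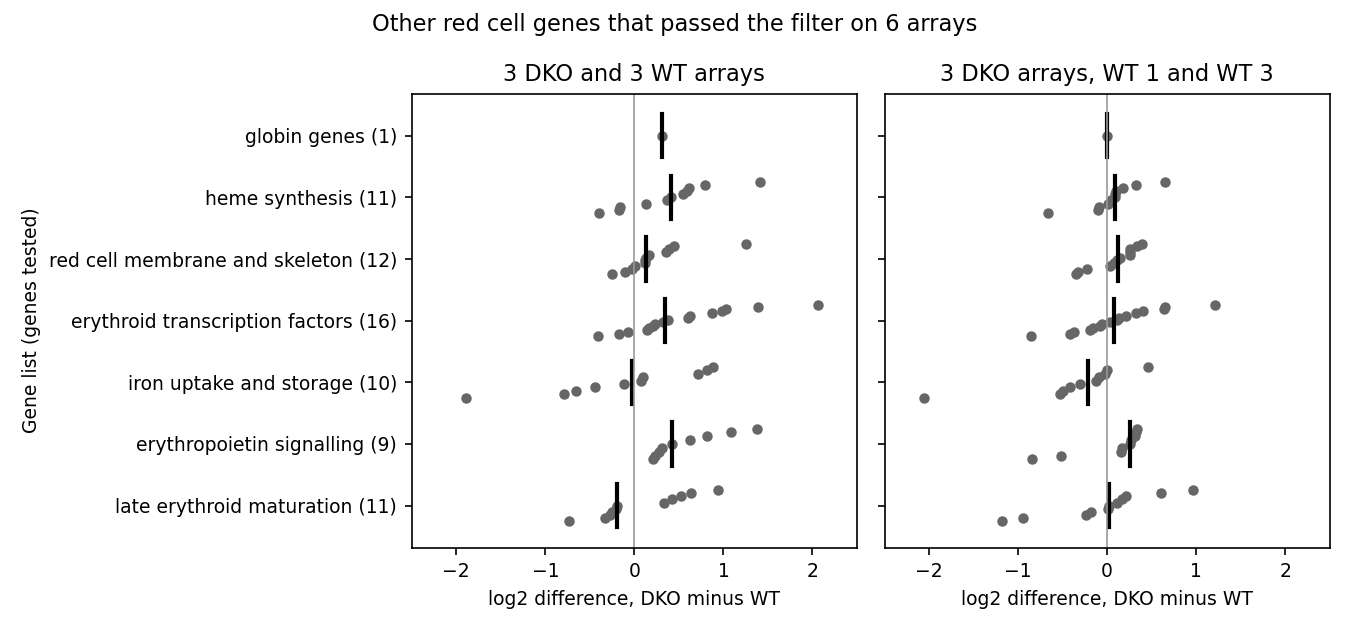
Log2 difference, DKO minus WT, of each tested gene of 7 lists of red cell genes, with all 6 arrays in the left panel and without WT 2 in the right panel; points are genes, spread a little in height, and black bars are the medians of these genes. The bar for erythropoietin signalling is at 0.42 at the left and 0.26 at the right, and that for iron genes at -0.02 and -0.21. The medians of all genes tested, not drawn, were 0.30 with 6 arrays and 0.01 without WT 2.

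Markers of the cells that such a culture could hold were summed on each array, by 1 probe set per gene. The 7 erythroid genes other than Tfrc summed to 302, 289 and 140 in DKO cells, against 241, 866 and 208 in WT cells. The 6 globins summed to 193, 213 and 229.7 in DKO cells, against 148, 272 and 223 in WT cells. For these sums the groups overlapped, DKO 3 was low only for the erythroid genes, and WT 2 was high for both. The 13 B lineage markers summed to 116437, 120807 and 83219.6 in DKO cells, against 84306, 160717 and 89841 in WT cells. Granulocyte markers, 14 genes, summed to 718, 670.4 and 28108 in DKO cells, against 76445, 179685 and 19478 in WT cells, and the 11 megakaryocyte markers to 728, 755 and 5494 in DKO cells, against 3662, 6338 and 3366 in WT cells. DKO 1 and DKO 2 were low for both lists, and DKO 3 lay among the WT arrays. Pf4 weighed heavily in the megakaryocyte sum, with 147, 198 and 3950 in DKO cells, against 1619, 4195 and 2269 in WT cells. Itga2b did not follow that split, with 206, 179 and 168 in DKO cells, against 218, 436 and 175 in WT cells. Of the 10 megakaryocyte genes tested, 8 had lower means in DKO cells and 2 higher, Gp1bb (0.28) and Gp9 (0.38). The 13 proliferation genes, of cells like those that carry Tfrc, summed to 103575, 96525 and 131632 in DKO cells, against 124633, 175046 and 130462 in WT cells. Mcm5 (57381) and Rrm2 (64806) weighed heavily in the WT 2 sum. Mcm2, Mcm5, Rrm2 and Tyms had their highest signals on WT 2, Bub1 was neither highest nor lowest there, and the other genes were lowest. Means were higher in DKO cells for 10 and lower for 3, but without WT 2 higher for 0 and lower for 13. The median log2 difference was 0.30, and -0.23 without WT 2, against 0.30 and 0.01 for all genes tested.

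**Figure D5:**
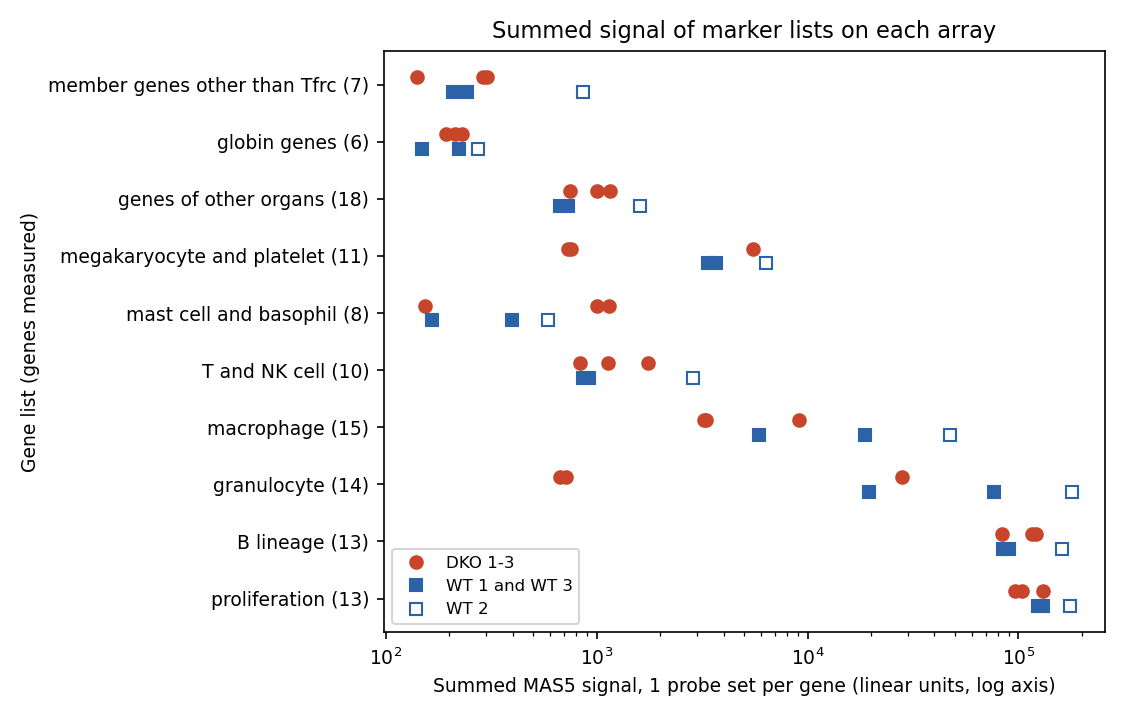
Summed MAS5 signal (log axis) of each marker list on each array, 1 probe set per gene, with DKO arrays as red circles above the WT arrays as blue squares, and WT 2 as an open square. The erythroid genes other than Tfrc run from 140 to 866 units and the measured globins from 148 to 272, while B lineage markers run from 83219.6 to 160717.

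Genes with the pattern closest to Alas2 and Tfrc over the arrays were found among the 9595 tested genes whose range was at least 1 log2 unit, by the root-mean-square difference of centred log2 values. For Alas2 they were Btbd11 (0.044), Rnpc3 (0.068) and Dck (0.069), and each was several times higher on WT 2 than on any other array: Dck gave 11523, 11399 and 9488 in DKO cells, against 10944, 44478 and 11119 in WT cells. For Tfrc they were Runx3 (0.056), Rlf (0.066) and Slc35f6 (0.075), which like Tfrc were lowest on WT 2 after centring. Without WT 2 the closest to Alas2 among 3817 genes were Sprr3 (0.217), Aldh1a3 (0.234) and Acot6 (0.235), and to Tfrc Mrpl45 (0.207), Gpr137b-ps (0.209) and Il10rb (0.220). On those 5 arrays Alas2 ranged over 0.37 log2 units and Tfrc over 0.40, less than the range required of the genes set beside them, so these likenesses are loose.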

How the data were processed

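Total RNA of 6 samples of cultured mouse bone marrow cells, 3 DKO and 3 WT, had been hybridised to 1-colour oligonucleotide arrays, and groups were taken from the labels. Each array's deposited column holds linear intensity by probe set, which came from MAS5 as run by the authors, per the submitters' processing notes. The MAS5 version, detection calls, hybridisation batches and the genome build were not given in the sources used here. The mean without the highest and lowest 2% was 500 on each array. The table held 45101 probe sets, 64 of them controls. Of the other 45037, 34945 had 1 gene symbol, 932 several and 9160 none, and names were taken from single symbols alone. Symbols and chromosomes were checked against the RefSeq gene table of GRCm38.p6, where 34741 matched by gene ID and 204 kept the listed symbol.

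Intensity was transformed as log2(intensity + 16), which understates the change of dim genes, and centred on each array's median. The 27022 probe sets whose mean exceeded percentile 40 entered the test, made with limma 3.58.1 in R 4.3.3 (group as the single term, variances with a trend, two-sided), and p was adjusted over all tested probe sets by the Benjamini-Hochberg method at 0.05. The fit was tested on simulated data. Intervals are 95% intervals from the fit and cover the spread between arrays. The number of arrays limits the precision, and an exact permutation test of 3 against 3 arrays cannot go below p = 0.1. A gene was counted by its probe set with the highest mean. All erythroid probe sets are named. From each list of other red cell genes, the genes named were drawn from the 2 with the smallest p and the 2 with the highest mean signal, and Hba-a1 was added after its values were seen. The genes and lists were chosen with earlier results of these data known. Arrays were not paired by replicate number in the main fit. Same-numbered arrays deviated from their group means with correlations of -0.15, -0.00 and 0.33, and different-numbered arrays with -0.39 to 0.32. With 3 arrays per group and WT 2 set apart by its quality, these values cannot decide if the numbers mark pairs. Centring, normalization, pseudocount, filter, variance prior, array weights, probe set choice, a replicate block and leaving out each array were tried as alternatives. Python 3.11.15, numpy 2.4.6, pandas 2.3.3, scipy 1.17.1 and matplotlib 3.10.9 made tables and figures.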

Additional observations from a re-analysis of the deposited data

How the results depend on the processing

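Over 160 values of single erythroid genes under the alternatives, 128 kept their sign and 32 turned it, 21 of them in tested genes. A change of filter, of variance prior or a replicate block cannot alter a difference of means here. Kept signs under those settings were therefore fixed in advance. The same holds for the mean over probe sets in genes with 1 probe set. The other 11 were of untested genes, 9 of Slc4a1, which ran from -0.36 to 0.14, and 1 each of Alas2 and Rhag. With no centring, Epor was at -0.15, Klf1 at -0.29 and Tfrc at -0.12 on the log2 scale; with quantile normalization Klf1 was at -0.15; with centring on the tested probe sets Epor was at -0.13, Klf1 at -0.27 and Tfrc at -0.10; with a pseudocount of 64 Klf1 was at -0.058. Leaving out DKO 1 put Epor at -0.046, leaving out DKO 2 put Klf1 at -0.07, leaving out WT 3 put Klf1 at -0.42, and leaving out WT 2 put Tfrc at -0.16 and Ermap at 0.17. Over all 6 such settings Epor ran up to 0.40, Klf1 to 0.33 and Tfrc to 0.39, and Ermap down to -0.53. Without WT 2 and with no filter Tfrc and Ermap were again at -0.16 and 0.17, and with quantile normalization -0.14 and 0.14, both settings being chosen after seeing the data. With limma's array weights, the estimation of weights stopped without converging (0.0526 for WT 2 to 30.9 for WT 1). Klf1 was then at -0.11, Gata1 at 0.0037, Tfrc at -0.20 and Ermap at 0.56 (limma adjusted p = 0.026). In that setting 2 of the 7 tested erythroid probe sets were called, beside 8129 of all 27022 tested. The 2 were those of Ermap and the second of Tfrc, and all other settings called 0 erythroid probe sets. With a pseudocount of 1, Alas2 was at -1.11 and Rhag at -1.84, and with array weights at 0.10 and 0.05.

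Over all probe sets, 2 were called. The count was 0 with no centring, quantile normalization, centring on the tested probe sets or a pseudocount of 1, 1 with a filter at percentile 60 or robust variances, and 8129 with array weights. Leaving out 1 array gave 0 to 6, with 6 reached without WT 2. Without WT 2 it was 10 with no filter and 5 with quantile normalization. With the replicate number as a replicate block 0 were called. Each number held 1 DKO and 1 WT array, so the block could not move any difference of means. The cause of these changes was not tested. With no detection calls, signal over background could not be judged per gene.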
